A study of Mus musculus with 2 samples.

Results

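The genes examined here encode the NF-kappa B pathway and the Myd88 adaptor branch that feeds it, in progenitors of group 2 innate lymphoid cells (ILC2). They were the 38 genes of a fixed list of symbols, matched by symbol in the deposited tables, and 38 of 38 were found among 27179 genes. The series holds 1 group of 2 RNA-seq libraries, with no treated, mutant or other control group. The cells were labelled as ILC2 progenitors and as wild type, and had been stained with antibodies and sorted from the bone marrow of C57BL/6 mice aged 8 weeks. Cells of 8 mice were combined for a library, so the spread between the libraries is between pools and the spread between single mice is averaged within them. They are named pool 1 and pool 2 here by their order of deposition alone. The sample codes in the column headings are swapped relative to the samples under which the tables were filed (0 of 2 matched), so pool 1 and pool 2 would trade places in every difference given here if the headings were correct.

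NF-kappa B is a family of dimeric transcription factors that the inhibitor proteins of the IkB family hold in the cytoplasm of resting cells. Receptors for IL-1, IL-18 and IL-33 and most Toll-like receptors recruit Myd88, which assembles IRAK kinases and the ubiquitin ligase TRAF6. That complex activates the kinase TAK1 and then the IkB kinase (IKK), whose phosphorylation of IkB leads to its destruction and frees the dimers. Receptors of the TNF family reach the same kinases through other TRAF proteins, and a slower branch runs through the kinase NIK and the precursor p100. Several genes that NF-kappa B switches on, among them Nfkbia and Tnfaip3, encode proteins that shut the pathway down again. In mature ILC2 the IL-33 receptor uses this route to induce type 2 cytokines.

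Levels are given as RPKM, reads scaled by gene length and by library depth, which allow a comparison between genes. Library totals worked out from the steps of the RPKM values were 20216146 reads for pool 1 and 19834586 for pool 2, and 3 reads in a gene of 1 kb equalled 0.148 and 0.151 RPKM. All 8 ILC2 markers checked, among them Il7r and Gata3, were at 1 RPKM or more in both pools, with sums of 1345 and 1534 RPKM. Markers of other bone marrow cells were also present. The sums over 10 neutrophil and monocyte genes were 966 RPKM in pool 1 and 2263 in pool 2, those over 5 erythroid genes 218 and 618, those over 8 eosinophil, basophil and mast cell genes 143 and 613, and those over 8 T cell genes 489.9 and 663. The sums over 6 dendritic cell genes were 64.3 and 114 RPKM. Of these, H2-Ab1 alone gave 58.5 and 108, and only 3 of the 6 genes were at 1 RPKM or more in both pools. The sums over 6 NK and ILC1 genes were 11.6 and 16.5 RPKM, those over 8 B and plasma cell genes 654 and 452, and those over 5 stromal genes 89.2 and 28.4. Cd8a was listed at 0 in both pools and Eomes lay under 0.1 RPKM in both. In bulk RNA, more cells of a type and more RNA per cell cannot be told apart.

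All 38 pathway genes were expressed at 1 RPKM or more in both pools, against 40.5% of all genes in the files. Their median level was 4.80 on the scale log2(RPKM + 0.1), against 3.86 for all 11013 genes at 1 RPKM or more in both pools, called detected below. A mean of 10 RPKM or more was reached by 33 of the 38 and by 60.9% of detected genes. The means ran from 3.51 RPKM for Traf5 to 317 for Nfkbia, which ranked 180 among the detected genes. Signalling kinases and adaptors mostly lay between 10 and 51 RPKM. By the mean over the pools the 4 most abundant were Nfkbia, Nfkb1, Rela and Tnfaip3, which encode inhibitors or subunits of NF-kappa B. The place of Tnfaip3 rests on pool 1, where it was at 131 RPKM, above Rela. In pool 2 it was at 41.8 RPKM, below Tab2, Birc3, Tnip1, Nfkb2, Myd88 and Relb as well.

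**Figure D1:**
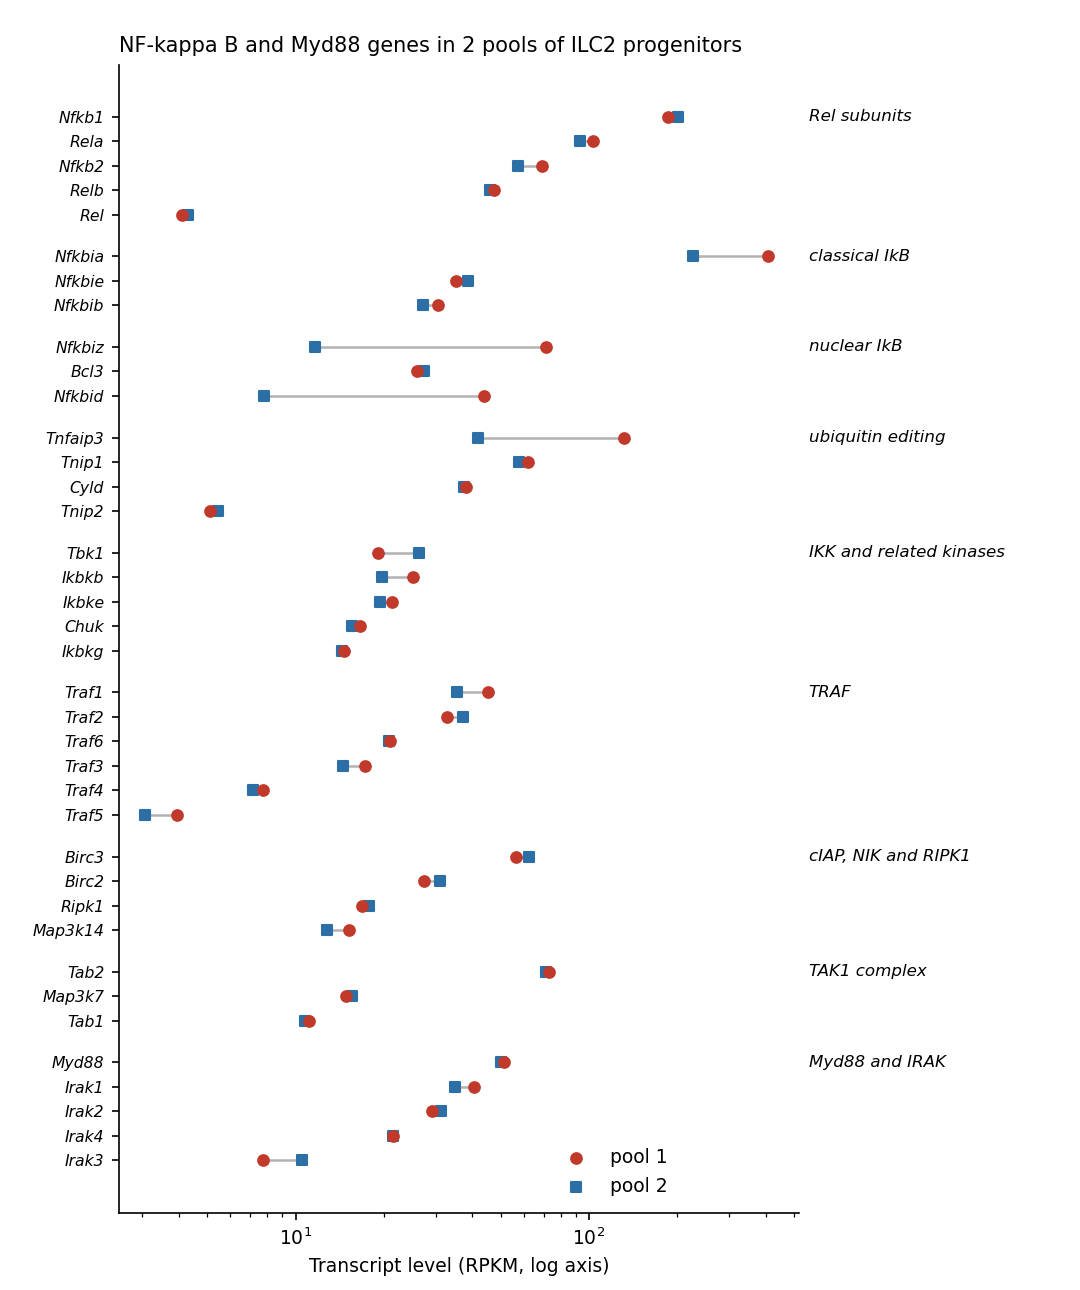
Level of each of the 38 genes in RPKM (log axis) in pool 1 (circles) and pool 2 (squares), with a grey line joining the pools and genes grouped by role. Most pairs of symbols touch or nearly touch, and those of Nfkbia, Nfkbiz, Nfkbid and Tnfaip3 are drawn apart with pool 1 higher.

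At the head of the pathway, Myd88 had an RPKM of 51.3 in pool 1 and 50.0 in pool 2 (mean 50.7 ± 0.893, SD, n = 2). The kinases that bind it were lower. Irak1, the kinase released to TRAF6, was at 40.7 and 34.9 RPKM, and Irak2, a related family member that sustains the signal, at 29.1 and 31.2. Irak4, the kinase that phosphorylates IRAK1, was at 21.4 and 21.5 RPKM, a difference of 0.36% as a coefficient of variation. Myd88 thus exceeded Irak4 by 2.40-fold and 2.33-fold in the pools. Irak3, which encodes the inhibitory member IRAK-M, was the lowest of this group at 7.76 and 10.5 RPKM, and was 1.35-fold higher in pool 2. Irak1 exceeded Irak3 by 5.24-fold in pool 1 and by 3.32-fold in pool 2, so the order of activating over inhibitory transcript held in both while its size did not.

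Of the TRAF adaptors, Traf1 and Traf2, partners in TNF receptor complexes, led with 45.3 and 35.4 RPKM for Traf1 in pools 1 and 2 and 32.9 and 37.2 for Traf2. Their order was reversed between the pools, so neither can be placed above the other. Traf6, the ubiquitin ligase downstream of Myd88, was at 20.903 and 20.8905 RPKM, the closest agreement of all 38 genes (CV 0.041%). Traf3, which keeps NIK low in resting cells, was at 17.3 and 14.6. Traf4 was at 7.76 and 7.17 RPKM. Traf5, an adaptor of several co-stimulatory TNF receptors, was the lowest of all 38 at 3.95 and 3.07, from at least 84 and 64 reads. On these minimum reads its read ratio of 1.29 has a 95% counting interval of 0.919 to 1.81. They rest on a length of 1051 bases, where the annotated exons hold 4566. A multiple of the reads is therefore possible, and the interval may be too wide to tell whether the ratio differs from 1. Traf1 exceeded Traf5 by 11.5-fold in both pools.

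The ubiquitin ligases that TRAF2 recruits were present as a pair. Birc3, which encodes cIAP2 and is itself a target of NF-kappa B, was at 56.5 and 62.3 RPKM, and Birc2, which encodes cIAP1, at 27.5 and 31.0. The ratio of Birc3 to Birc2 was 2.03 ± 0.034 over the pools. Ripk1, the scaffold kinase of the TNF receptor complex, was at 16.8 and 17.8. Map3k14, which encodes NIK, the kinase of the slower branch, was at 15.3 and 12.8 RPKM. It lay close to Traf3, which exceeded it by 1.13-fold and 1.14-fold.

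The TAK1 complex was dominated by 1 subunit. Tab2, the subunit that reads ubiquitin chains, was at 73.3 and 71.3 RPKM, the kinase gene Map3k7 at 14.9 and 15.6, and the activating subunit Tab1 at 11.1 and 10.8. Tab2 exceeded Tab1 by 6.60-fold and 6.62-fold. Their summed level was 99.3 RPKM in pool 1 and 97.6 in pool 2.

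The IKK genes lay within a narrow band. Chuk and Ikbkb, the catalytic subunits IKK alpha and IKK beta, were at 16.6 and 15.5 RPKM and at 25.2 and 19.6 RPKM. Ikbkg, the regulatory subunit NEMO, was at 14.6 and 14.4. The related kinases that also activate interferon regulatory factors were at like levels, Ikbke at 21.3 and 19.4 RPKM and Tbk1 at 19.2 and 26.3. Tbk1 was 1.37-fold higher in pool 2 (95% counting interval of the read ratio 1.27 to 1.48), the furthest apart in that direction of all 38 genes. It ranked below Ikbkb and Ikbke in pool 1 and above them in pool 2, whereas Chuk and then Ikbkg were lowest in both.

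The NF-kappa B subunits kept the same order in both pools. Nfkb1, the precursor of p50, was highest at 185 and 201 RPKM (mean 193 ± 10.8, n = 2). Rela, the main activating subunit, followed at 103 and 92.8, Nfkb2, the precursor of p52, at 69.4 and 57.4, and Relb, the usual partner of p52, at 47.6 and 45.9. Rel, which encodes c-Rel, was at 4.12 and 4.31 RPKM from at least 215 and 221 reads. It lay below every other subunit by more than the spread between pools. Rela exceeded Rel by 25.1-fold and 21.5-fold and Relb by 2.17-fold and 2.02-fold. Of the 3 activating subunits, Rela was thus the most abundant as transcript and c-Rel the least.

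Among the classical inhibitors, which hold dimers in the cytoplasm, Nfkbia (IkB alpha) was far above the others. Its RPKM was 408 in pool 1 and 226 in pool 2, against 30.7 and 27.2 for Nfkbib (IkB beta) and 35.3 and 38.7 for Nfkbie (IkB epsilon). Nfkbia exceeded Nfkbib by 13.3-fold and 8.31-fold and Rela by 3.95-fold and 2.44-fold. The nuclear members of the family act on dimers already bound to DNA. Bcl3, which binds p50 and p52, was at 25.9 and 27.4 RPKM. Nfkbiz (IkB zeta) was at 71.3 and 11.6 RPKM, and Nfkbid (IkB NS) at 43.7 and 7.80. Bcl3 therefore lay below both of them in pool 1 and above both in pool 2.

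Among the genes grouped here as ubiquitin-editing genes and their partners, Tnfaip3, which encodes the inhibitor A20, was at 131 and 41.8 RPKM. Its binding partner Tnip1 (ABIN-1) was at 61.9 and 57.9, and Cyld, another deubiquitinase that limits the pathway, at 37.99 and 37.4. Tnip2 (ABIN-2) was low at 5.11 and 5.44 RPKM, and Tnip1 exceeded it by 12.1-fold and 10.6-fold. Tnfaip3 exceeded Cyld by 3.45-fold in pool 1 and by 1.12-fold in pool 2.

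The pools differed in a small part of the pathway. Of the 38 genes, 3 were at least 2-fold higher in pool 1, where 0.962% of detected genes were, and 0 were at least 2-fold higher in pool 2, where 1.6% of detected genes were. With 1 library a side there is no replicate check of these differences and no test between the pools. Nfkbiz was 2.61 higher in pool 1 on the log2 scale, with 5593 reads against 894, a ratio per library read of 6.14 (95% exact counting interval 5.72 to 6.59). Nfkbid was 2.47 higher, with 1776 against 311 reads (ratio 5.60, interval 4.96 to 6.34). Tnfaip3 was 1.65 higher, with 12175 against 3812 reads (ratio 3.13, interval 3.02 to 3.25). Nfkbia, just short of the 2-fold line, was 0.85 higher with 13028 against 7090 reads (ratio 1.80, interval 1.75 to 1.86). The intervals cover counting error only, and the reads are PCR products without molecular identifiers. At a 1.5-fold line, 4 of the 38 were higher in pool 1 and 0 in pool 2, against 2.6% and 5.86% of detected genes. Among the 8323 genes at 5 RPKM or more in both pools, which include 36 of the 38, 0.517% and 0.709% were at least 2-fold higher in pool 1 and pool 2. The 4 genes past the 1.5-fold line encode inhibitors or nuclear modulators of the pathway, but most members of that kind did not differ so. Nfkbib, Nfkbie, Bcl3, Tnip1, Tnip2 and Cyld were within 1.13-fold, and Irak3 was 1.35-fold higher in pool 2.

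The other 34 genes lay within 1.37-fold. Over all 38 genes the median distance was 1.10-fold, against 1.12-fold over all detected genes. Of all 38, 29 were within 1.25-fold, close to the 74.5% of detected genes, so nearness of the pools was not particular to the pathway. The median difference, pool 1 minus pool 2, was 0.042 (log2) over the 38 genes and -0.044 over all detected genes. Of the 13 genes listed as textbook targets of NF-kappa B, 8 were higher in pool 1 and 5 in pool 2 by any amount, and the list holds all 4 genes named above. Pool 1 had the higher value for 42.7% of all detected genes, and pool 2 for 57.3%. The other 9 were within 1.28-fold. Relb, Tnip1 and Bcl3 were within 1.07-fold, Nfkbie and Birc3 were 1.10-fold higher in pool 2, and Traf1 was 1.28-fold higher in pool 1. In the 25 remaining genes the largest difference was the 1.37-fold of Tbk1.

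**Figure D2:**
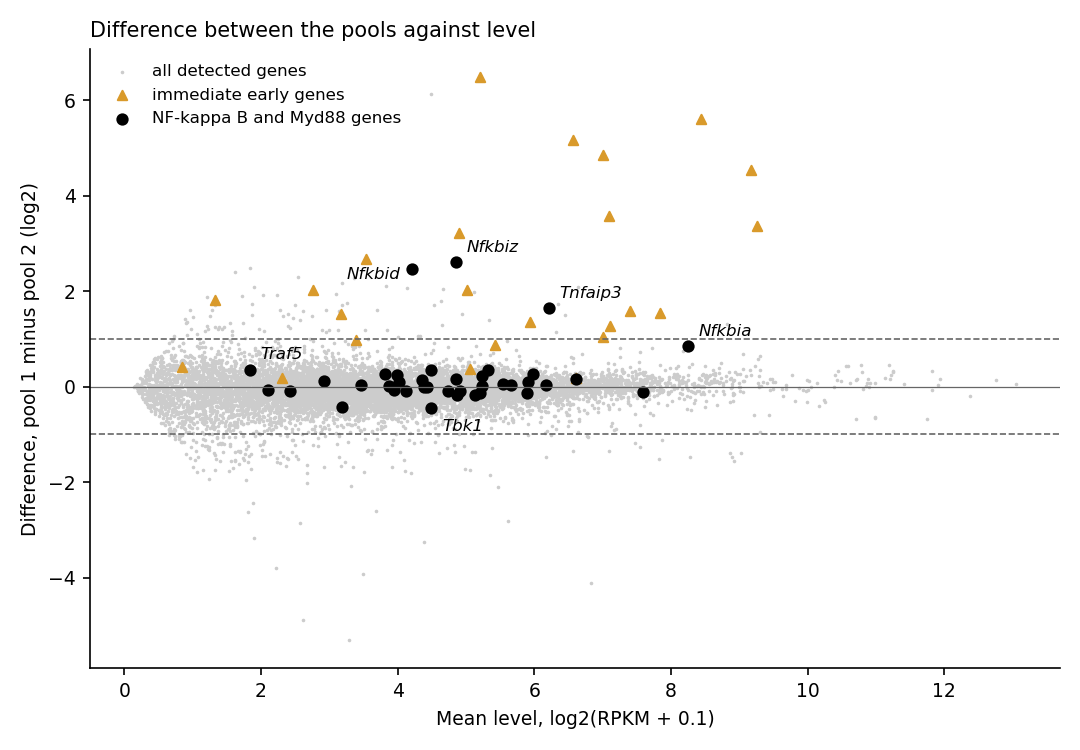
Difference between the pools (pool 1 minus pool 2, log2) against mean level for the 11013 detected genes (grey), 24 immediate early genes (triangles) and the 38 pathway genes (black circles), with dashed lines at 2-fold. Nfkbiz, Nfkbid and Tnfaip3 lie above the upper line at 2.61, 2.47 and 1.65, Nfkbia just under it at 0.85, and the others lie in the cloud of all genes.

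By role, the sums followed these few genes. The sum over the 5 NF-kappa B subunits was 409.8 RPKM in pool 1 and 401 in pool 2, while the sum over the 3 classical inhibitors was 474 and 292. Classical inhibitor transcripts were thus 1.16 times those of the subunits in pool 1 and 0.729 times in pool 2. Without Nfkbia, the other classical inhibitors summed to 65.99 and 65.96 RPKM. The sum over the 3 nuclear IkB genes was 141 and 46.8, and that over the 4 ubiquitin-editing genes 236 and 143, or 105 and 101 without Tnfaip3. The sums over IKK and related kinases (96.8 and 95.2), over Myd88 and the IRAK genes (150.3 and 148) and over TRAF genes (128 and 118) differed by less than 1.1-fold. Nfkbia, Nfkbiz, Nfkbid and Tnfaip3 together held 654 RPKM in pool 1 and 288 in pool 2, and the 34 other genes 1197 and 1178.

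**Figure D3:**
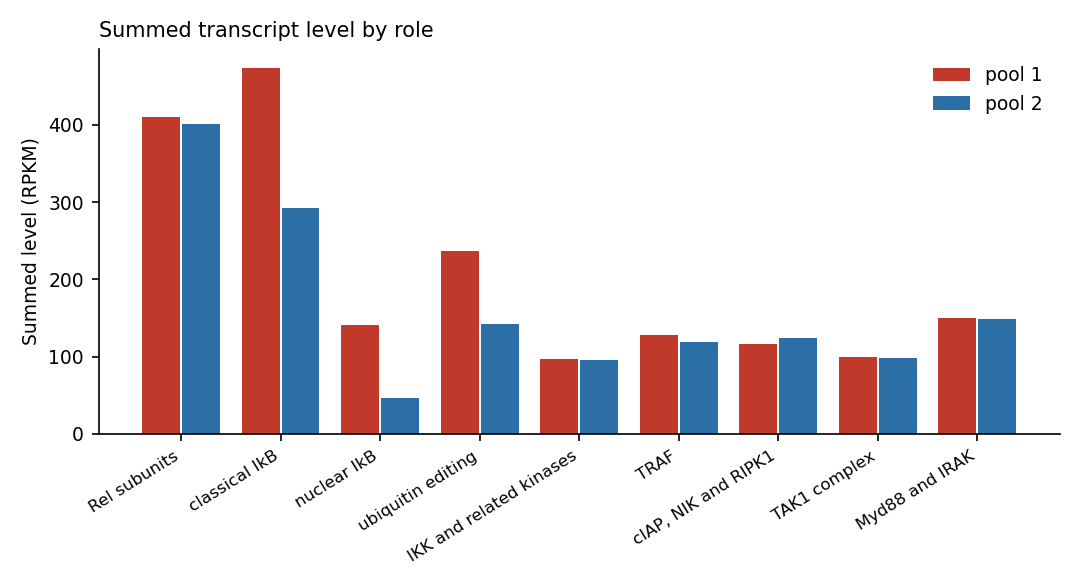
Summed RPKM of the genes of each role in pool 1 and pool 2, with bars starting at 0. The classical inhibitors (474 and 292), the nuclear IkB genes (141 and 46.8) and the ubiquitin-editing genes (236 and 143) differ between the pools. The other 6 roles are nearly level.

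The upstream sequences of 3 of these 4 genes, and of Nfkbie as a listed target that differed little, are shown because they carry the letters of the kappa B motif to which NF-kappa B dimers bind. The sequences are from RefSeq on GRCm38.p6, the build of mm10, read 5′ to 3′ on the strand of the gene and ending at the base before the annotated transcript start. They are chr12:55492648-55492897 (minus strand) for Nfkbia, chr10:19015411-19015547 (minus strand) for Tnfaip3, chr7:30422156-30422405 (plus strand) for Nfkbid, whose start here is the second of 3 annotated, and chr17:45555450-45555699 (plus strand) for Nfkbie. Capitals mark matches to the kappa B motif, which is GGG, A or G, any 2 bases, C or T at 2 positions, and CC, on either strand.
Nfkbia: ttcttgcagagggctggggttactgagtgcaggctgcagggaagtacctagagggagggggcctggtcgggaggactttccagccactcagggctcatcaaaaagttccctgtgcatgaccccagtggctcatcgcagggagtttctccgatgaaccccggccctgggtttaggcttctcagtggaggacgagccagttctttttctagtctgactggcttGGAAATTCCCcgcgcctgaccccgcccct
Tnfaip3: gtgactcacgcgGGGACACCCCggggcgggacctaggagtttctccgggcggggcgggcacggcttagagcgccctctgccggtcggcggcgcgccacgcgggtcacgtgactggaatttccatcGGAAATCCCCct
Nfkbid: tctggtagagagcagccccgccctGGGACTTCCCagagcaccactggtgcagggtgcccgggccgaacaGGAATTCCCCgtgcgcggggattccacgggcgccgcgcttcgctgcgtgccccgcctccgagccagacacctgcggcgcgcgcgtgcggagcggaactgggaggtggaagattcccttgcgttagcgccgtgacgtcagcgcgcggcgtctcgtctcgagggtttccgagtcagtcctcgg
Nfkbie: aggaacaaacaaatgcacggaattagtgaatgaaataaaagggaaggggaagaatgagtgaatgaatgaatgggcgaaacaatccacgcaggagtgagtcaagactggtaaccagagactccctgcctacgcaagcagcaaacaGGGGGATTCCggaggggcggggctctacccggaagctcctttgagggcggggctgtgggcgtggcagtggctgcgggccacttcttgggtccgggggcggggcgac
The match in Nfkbia ends 20 bases before the start. Tnfaip3 has a match at 125 to 116 bases and another at 12 to 3 bases before the start. Nfkbid has matches at 226 to 217 and 181 to 172, and Nfkbie has one at 106 to 97. For a gene with more than 1 annotated start, the start with the most matches is shown. The motif was in the 250 bases before only 1 of 3 annotated starts of Nfkbid and 1 of 2 of Tnfaip3.

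Promoter windows were on hand for 33 of the 38 genes, and those of Nfkb1, Relb, Nfkbiz, Ikbkb and Tab1 were not analysed here. In the 250 bases before a transcript start, 11 of the 33 genes held the kappa B motif, against 8.23% of all 27025 genes with a promoter and 7.25% of all 32851 windows. It was in 7 of 10 textbook targets (Nfkb2, Rel, Nfkbia, Nfkbie, Nfkbid, Tnfaip3 and Tnip1) and in 4 of the 23 others (Irak1, Traf3, Map3k7 and Cyld). Genes with the motif included both those that differed between the pools and others, since Nfkb2, Nfkbie, Rel and Tnip1 hold it and were within 1.21-fold. The cyclic AMP response element TGACGTCA was in the windows of Nfkbid, 51 bases before the start shown, and Birc2, against 1.77% of all genes. The AP-1 motif TGANTCA was in 4 of 33, namely Tnfaip3, Nfkbie, Nfkb2 and Ikbkg, against 7.82%. The serum response element (CArG box) was in 0 of 33 genes, against 1.62% of all genes. A match of letters is not a binding site, and all motifs were searched on both strands, each for itself.

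Immediate early genes, which stimulated or stressed cells switch on within minutes, differed between the pools in the same direction. All 24 detected members of a list of 25 were higher in pool 1, against 42.7% of detected genes. At least 2-fold higher were 18 of them, against 0.962% of detected genes, and their median difference was 1.70 (log2). The list was chosen with earlier results of these data known, so these counts are a description and no independent check. Zfp36, whose product degrades mRNA, was at 2786 and 120.3 RPKM in pools 1 and 2, Fos at 2441 and 49.6, and Junb at 1970 and 189.7. Egr1 was 89.2-fold, Fos 49.1-fold and Fosb 35.9-fold higher. Their part in the differences of Nfkbiz, Nfkbid, Tnfaip3 and Nfkbia was not tested. Most marker sums of other cells moved the other way, with the neutrophil and monocyte sum 2.34-fold, the erythroid sum 2.83-fold and the eosinophil, basophil and mast cell sum 4.28-fold higher in pool 2. The last of these was carried by Prg2, at 27.2 and 471 RPKM, and Epx, at 1.03 and 33.3. In the same list Mcpt8 (26.7 and 16.6 RPKM), Prss34 (42.5 and 33.0) and Fcer1a (2.99 and 1.33) were higher in pool 1. The B cell and stromal sums were 1.44-fold and 3.14-fold higher in pool 1. The part of these cells in the differences was not tested either.

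The rest of the pathway was followed in a list of 37 further genes, of which 32 were detected. Their median difference was -0.058 (log2). Of the 32, 1 gene was at least 2-fold higher in each pool, against 0.962% of detected genes for pool 1 and 1.6% for pool 2. Map3k8, which encodes the kinase TPL2 that NF-kappa B1 p105 holds inactive, was at 8.35 and 2.67 RPKM, 3.04-fold higher in pool 1. Tifa, a TRAF6-binding adaptor, was at 1.34 and 3.26, 2.33-fold higher in pool 2. The 3 most abundant were Ube2d3, a ubiquitin-conjugating enzyme, at 122 ± 8.24 RPKM (SD, n = 2), Rbck1, the HOIL-1 subunit of the linear ubiquitin ligase, at 95.5 ± 5.48, and Peli1, a ubiquitin ligase of IRAK complexes, at 66.9 ± 1.61.

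Of 29 receptors of families that signal to NF-kappa B, 23 were detected. The most abundant were Tnfrsf18 (GITR) at 306 and 235 RPKM, the IL-33 receptor Il1rl1 at 173 and 262, and the IL-25 receptor chain Il17rb at 196 and 202. Of the 23, 3 were at least 2-fold higher in pool 2 and 0 in pool 1, against 1.6% and 0.962% of detected genes. Il18r1, the IL-18 receptor, was at 17.8 and 45.8 RPKM (2.56-fold), the endosomal receptor Tlr7 at 1.43 and 3.57 (2.40-fold) and the IL-1 receptor Il1r1 at 2.50 and 5.95 (2.33-fold). Il1rap, the chain that Il1rl1 and Il1r1 need in order to signal, was at 6.29 and 6.09 RPKM. Il18r1, Tlr7 and Il1r1 differed in the direction opposite to Nfkbiz, Nfkbid, Tnfaip3 and Nfkbia. Myd88, which these 3 receptors share, differed by 1.03-fold. By any amount, 8 of the 23 receptors were higher in pool 1 and 15 in pool 2, against 42.7% and 57.3% of detected genes.

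Genes known as NF-kappa B targets in other cells, outside the 38, were mixed as well. Of 30 listed, 19 were detected, 12 higher in pool 1 and 7 in pool 2, against the 42.7% and 57.3% of all detected genes. The chemokine gene Cxcl2 was at 3.43 and 0.419 RPKM, from at least 25 and 3 reads. The early response gene Ier3 was at 2.54 and 0.601 RPKM, from at least 56 and 13 reads. Il6 was at 1.18 and 0.510 RPKM and the chemokine gene Ccl4 at 1.05 and 0.840. Cxcl2, Ier3, Il6 and Ccl4 were thus above 1 RPKM in pool 1 only and so not among the 19. Gadd45b was at 51.3 and 12.4 RPKM, the RNase gene Zc3h12a at 22.5 and 7.33 and the activation marker Cd69 at 52.2 and 18.0, and these 3 were 4.11-fold, 3.04-fold and 2.89-fold higher in pool 1. Bcl2a1d, 1 of a family of near-identical copies among which reads may be split, was 2.57-fold higher in pool 2. At least 2-fold higher were thus 3 of the 19 in pool 1 and 1 in pool 2, against 0.962% and 1.6% of detected genes. The abundant targets were nearly level, with Ltb, the lymphotoxin beta gene, at 1785 and 1585 RPKM, Sqstm1 at 188 and 195 and the chemokine gene Ccl5 at 137 and 133. Ccl3 and Ptgs2 were under 1 RPKM in both pools, and Ccl20 was listed at 0 in both.

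**Figure D4:**
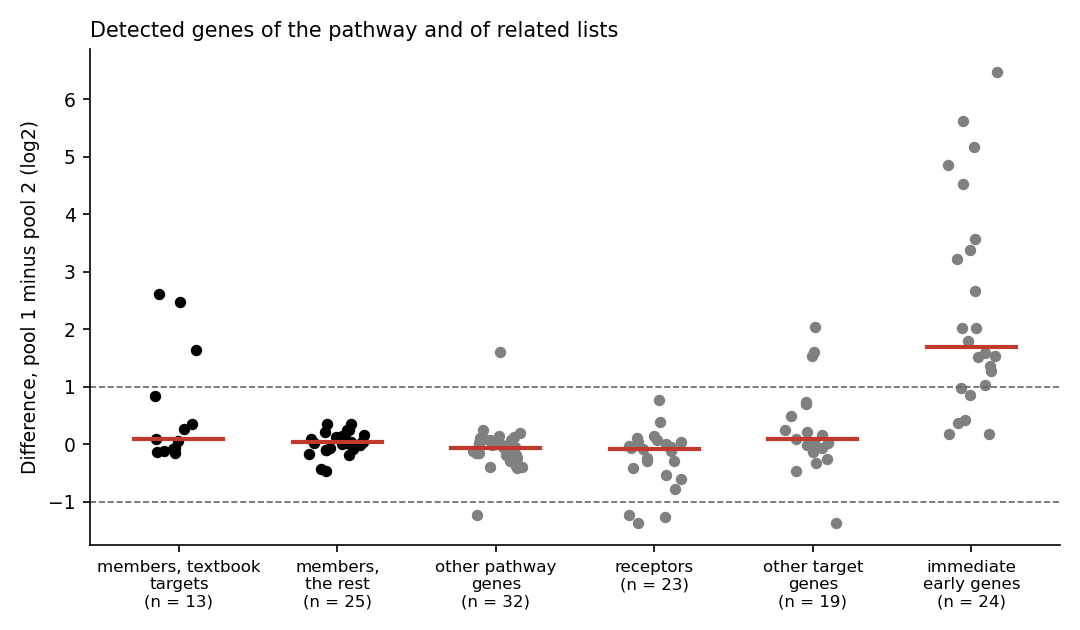
Difference between the pools (pool 1 minus pool 2, log2) of each detected gene in 6 lists, with the median of each list as a red bar and dashed lines at 2-fold. The medians of the first 5 lists lie between -0.071 and 0.099, and the immediate early genes have a median of 1.70. Among the first 5 lists, single genes lie above the upper line in both target lists and in the other pathway genes. Others lie below the lower line in the receptors, the other pathway genes and the other target genes.

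Some levels could include reads of a neighbour, since the strand setting of the counting is not given. Exon bases shared with another annotated gene were found for 13 of the 38 genes, up to 531 bases in Nfkb2. They include Myd88, which overlaps Acaa1a (40.5 and 35.7 RPKM), and Irak3, which overlaps Tmbim4 (109 and 112 RPKM). Nfkbia, Nfkbiz, Nfkbid and Tnfaip3 share none.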

How the data were processed

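RNA of 2 libraries of sorted ILC2 progenitors, prepared from 100 ng of total RNA each, was analysed. The authors deposited RPKM values per Entrez gene ID with symbols, 1 table a library. Per the submitters' processing notes, CASAVA 1.8.2, featureCounts, edgeR (3.8.2 and 3.22.0) and the mm10 genome were used, with no role given for any of them. Which aligner was used, and whether counting used strand, is not given in the sources used here. No samples were left out.

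Library totals were recovered from the steps of low RPKM values, and the smallest whole gene length from 20 to 130000 bases that made both values whole reads gave the reads. Reads were called whole within the rounding of the deposited values, which had to be under 0.01 reads. For 1000 genes drawn at random, 99.1% came out whole at lengths up to 10000 bases, and 1.3% with totals wrong by 1 part in 1000, as against 13.3% with wrong totals over all lengths. All 38 pathway genes came out whole at lengths up to 10000 bases, and 0 with wrong totals. The reads are lower bounds, since a multiple of the length fits too, so intervals are if anything too wide. The procedure was tested on simulated data with known totals and reads. Differences are log2(RPKM + 0.1) of pool 1 minus pool 2, which understates low genes, and detection is 1 RPKM in both pools. Intervals are Clopper-Pearson from binomial proportions. With 2 libraries of 1 group no test between samples was made. Labels do not say whether the pools were processed on different days.

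The 38 genes, their roles and the other lists were chosen with earlier results of these data known. All 38 are reported. From each other list the rule names the 3 highest and the 3 furthest apart of those at least 2-fold apart in each direction. Otulin was on the pathway list and not analysed here, and Siglecf was matched to the older symbol Siglec5. Il1rap, Il6, Ccl3, Ccl4, Ptgs2, Ccl20, Cxcl2 and Ier3 were named after their values were seen. Coordinates are RefSeq GRCm38.p6. In 41 of 46 promoter windows of the 38 genes, the bases after the start were found in a GENCODE M21 transcript of the gene, and bases within any GENCODE exon were left off the sequences printed. The analysis used Python 3.11.15, numpy 2.4.6 and scipy 1.17.1. Alternatives in pseudocount, filter, fold, scaling and summary are in the closing section.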

Additional observations from a re-analysis of the deposited data

How the results depend on the processing

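The count of 38 genes detected held at 0.5 RPKM, above 0 RPKM and in either pool alone, and was 36 at 5 RPKM. The median level ranged from 4.75 to 4.83 (log2) over the single pools and from 4.79 to 4.85 over pseudocounts of 0.01 and 1. The count at least 2-fold higher in pool 1 stayed 3 with a pseudocount of 1, under each filter, at 3-fold and with the pools centred on the median ratio, and was 4 at 1.5-fold, where Nfkbia joins. The count higher in pool 2 was 0 under each of these. The median difference ranged from 0.040 to 0.086. Of 152 single-gene alternatives, 150 stayed within the counting interval and 2 did not. Both were under centring, which gave 0.89 for Nfkbia and -0.070 for Nfkb1. Centring also changed the sign of 1 gene, Irak4, from -0.0073 to 0.037. The other alternatives were the pseudocounts and the recovered reads. They could move little, since the reads come from the same RPKM values and all 38 genes lie well above the pseudocount of 0.1. Summed levels by role depended on single genes. With the median over members in place of the sum, some ratios of pool 1 to pool 2 moved. They went from 1.02 to 1.21 for NF-kappa B subunits and from 1.62 to 0.911 for classical inhibitors. For nuclear IkB genes the ratio went from 3.01 to 3.76 and for ubiquitin-editing genes from 1.66 to 1.26. That of Myd88 and IRAK genes went from 1.01 to 0.934. Left out after seeing the data, Nfkbia moved the classical ratio to 1.0004 and Tnfaip3 the ubiquitin-editing ratio to 1.04. Leaving out a pool leaves no difference between pools to compute. No paired analysis was possible because the series has 1 group. With 2 libraries the precision of each level is limited by their number.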
